A study of Mus musculus with 6 samples.

Results

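The class II branch of antigen presentation was examined through 9 genes of the deposited table of 21720 gene symbols. They were picked by symbol for their role in class II presentation, with earlier results of these data known. The set holds the class II chain genes H2-Aa, H2-Ab1 and H2-Eb1, the invariant chain gene Cd74, the peptide-loading genes H2-DMa, H2-DMb1, H2-Oa and H2-Ob, and the transactivator gene Ciita. All 9 were found, and all 9 passed the filter on low counts. The RNA came from tumours of H22, a mouse hepatocellular carcinoma line, grown under the skin of female wild-type BALB/c mice aged 6 to 8 weeks. The control group received the vehicle, 0.5% carboxymethyl cellulose sodium, and the luteolin group received 200 mg/kg of luteolin, a plant flavonoid, each by gavage of 0.2 mL once a day for 21 days from a tumour volume of about 50 mm3. Each group gave 3 libraries of whole tumour RNA, and the sources used here do not say whether a library came from 1 mouse, so p values measure only the spread between these libraries.

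MHC class II molecules carry peptides from endosomes to the cell surface, where CD4+ T cells read them. Their α and β chains are joined in the endoplasmic reticulum by the invariant chain (CD74), which blocks the peptide groove and steers the complex to endosomes. There the invariant chain is cut down by proteases, H2-DM exchanges its last fragment for peptide, and H2-DO, found mainly in B cells and some dendritic cells, restrains H2-DM. CIITA binds no DNA itself but is recruited to class II promoters by factors that sit on the X and Y boxes. Dendritic cells, macrophages and B cells carry class II constitutively, and interferon-γ induces it in many other cells.

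The X and Y boxes of the class II promoters are shown because they are the shared feature through which CIITA reaches these genes. RefSeq promoters (GRCm38.p6, strain C57BL/6J) were given for 6 of the 9 members, and those of H2-Ab1, Cd74 and Ciita were not analysed here. The 250 bases before each start were searched on both strands for GNAAC, the core of the X box, followed after 20 to 32 bases by GATTGG, the core of the Y box. These letters were chosen after the promoters had been read, and the motifs do not overlap. Of the 6 members, 5 held the pair in a promoter, while 0.729% of the 27025 symbols and 0.645% of the 32851 promoters in the table did. GATTGG alone was in 14.6% of all promoters and GNAAC alone in 79.6%. The windows below run 5′ to 3′ in the direction of the gene, with the letters of both motifs in capitals.

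H2-Aa: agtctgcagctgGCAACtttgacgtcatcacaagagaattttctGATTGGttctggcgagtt
H2-Eb1: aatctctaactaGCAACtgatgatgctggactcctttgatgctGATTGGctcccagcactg
H2-DMb1: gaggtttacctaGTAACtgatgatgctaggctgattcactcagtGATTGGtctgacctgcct
H2-Oa: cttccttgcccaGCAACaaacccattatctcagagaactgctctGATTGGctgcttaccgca
H2-Ob: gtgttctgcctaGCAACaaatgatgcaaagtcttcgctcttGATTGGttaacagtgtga

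The window of H2-Aa lies on the minus strand at chr17:34287855-34287916. The others lie on the plus strand, at chr17:34305764-34305824 for H2-Eb1, chr17:34153085-34153146 for H2-DMb1, chr17:34092291-34092352 for H2-Oa and chr17:34238806-34238864 for H2-Ob. All are upstream of the annotated start, with the first base of GNAAC between 76 and 94 bases before it. The gap between the motifs was 27 bases in H2-Aa, H2-DMb1 and H2-Oa, 26 in H2-Eb1 and 24 in H2-Ob. Windows are printed only where both motifs matched, so their shared letters say nothing about transcript levels. The transcripts of H2-Oa and H2-Ob were the rarest of the set. The RefSeq windows of H2-DMa did not hold the pair of letters, which says nothing about factors bound there.

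Total counts ranged from 61081637 to 80442954 per library. The deposited values are estimated counts, so that 1 unit may be less than a read pair, and levels are given as CPM, counts per 1000000 of the TMM-normalized library total. Luteolin replicate 2 stood apart, with a summed level of skin keratinocyte markers of 9683 CPM against 16.6 and 412 CPM in the other luteolin libraries and 3.92 to 4.76 CPM in the controls. Afp, which hepatoma cells make, lay lower in every luteolin library, with 43.4 to 66.7 CPM in the controls and 32.7 to 41.8 CPM in the luteolin libraries (log2 fold change -0.58, unadjusted p = 0.0269, adjusted p = 0.187 by edgeR), and its part in the class II values was not tested. Alb, the serum albumin gene of hepatocytes, had 0.868 to 60.3 CPM in the controls and 26.0 to 133 CPM in the luteolin libraries. The reference genome is of another strain than BALB/c, and class II chain genes differ between strains, so that some reads of H2-Aa, H2-Ab1 and H2-Eb1 may not have aligned. The size of such a loss was not tested. The H2-Ea gene of the class II α chain that pairs with H2-Eb1 was not analysed here.

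The class II chains, the invariant chain, H2-DM and Ciita lay above the controls in every luteolin library, and the H2-DO genes did not. Of the 9 members, 7 lay above every control library in all 3 luteolin libraries, against 15.9% of the 14963 genes tested. The study's threshold was a fold change over 2 and an unadjusted p under 0.05, which the study applied to DESeq2. It was applied to edgeR here and below, unless another setting is named. By it 6 of the 9 were up-regulated, against 11.3% of all genes, and 0 were down-regulated, against 1.52%. After Benjamini-Hochberg adjustment over all genes, the quasi-likelihood test of edgeR gave 0 members with an adjusted p under 0.05, against 1.34% of all genes that did so in this direction. In the same test 7 members were higher at an unadjusted p under 0.05, against 14% of all genes. DESeq2 gave 7 higher members at an adjusted p under 0.05, against 8.83% of its genes. Limma's voom, run with sample quality weights here and below, gave 7, against 12.6%. These were not the same 7 genes. DESeq2 called H2-DMb1 and not H2-Oa, while voom called H2-Oa (adjusted p = 0.0443) and not H2-DMb1 (adjusted p = 0.0598). The median log2 fold change was 1.14 for the members and -0.01 for all genes tested.

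The members took 0.104% to 0.149% of all counts in the control libraries and 0.191%, 0.398% and 0.284% in luteolin replicates 1, 2 and 3. The 3 chain genes and Cd74 supplied between 91.8% and 94.8% of these counts in every library. Luteolin replicate 2 had the highest CPM of all 9 members, and control replicate 3 had the lowest of 6 of them. Libraries also differed in a trend with GC content. Spearman's correlation of GC content with deviation from a gene's mean log2 CPM was 0.42, -0.17 and -0.52 in control replicates 1 to 3. It was -0.18, 0.43 and -0.35 in luteolin replicates 1 to 3. H2-Aa and H2-Ob lay at the 32.3 and 30.1 percentiles of GC content among tested genes, and the other members from 59.9 to 87.7. This trend entered only the setting with offsets for GC content and gene length. In whole tumours, more class II cells and more class II RNA in each cell cannot be told apart.

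H2-Aa encodes the α chain of the I-A molecule. Its level was 351, 282 and 264 CPM in control replicates 1, 2 and 3 and 494, 949 and 730 CPM in luteolin replicates 1, 2 and 3. Even luteolin replicate 1, the lowest of its group, lay above control replicate 1, the highest of the controls. The mean rose from 299 ± 45.9 to 724 ± 228 CPM (SD, n = 3 each), 2.42-fold, or 1.27 ± 0.26 on the log2 scale (fitted fold change ± SE, here and below, adjusted p = 0.0665 by edgeR).

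H2-Ab1 encodes the β chain that pairs with H2-Aa. It had 180, 132 and 119 CPM in the control replicates and 258, 564 and 373 CPM in the luteolin replicates. The groups did not overlap, and the mean of 399 ± 155 CPM was 2.78 times that of the controls, 144 ± 32.2 CPM (SD, n = 3 each). Its log2 fold change of 1.47 (SE 0.31, adjusted p = 0.0742 by edgeR) was the largest of the 7 members with groups that did not overlap.

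H2-Eb1 encodes the β chain of the other class II molecule, I-E. The control replicates had 205, 158 and 148 CPM and the luteolin replicates 286, 623 and 476 CPM. As in the I-A genes, luteolin replicate 1 was the lowest of its group and control replicate 1 the highest. The log2 fold change was 1.44 (SE 0.30, adjusted p = 0.071 by edgeR), from 170 ± 30.4 to 461 ± 169 CPM (SD, n = 3 each). H2-Ab1 and H2-Eb1 stayed at the study's threshold in all 16 alternative settings, and H2-Aa in 15 of them, the exception being voom with a log2 fold change of 0.94.

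Cd74, whose product also serves as a receptor for the cytokine MIF, was the most abundant member. It had 655, 458 and 470 CPM in the control replicates against 731, 1452 and 1113 CPM in the luteolin replicates. Control replicate 1 and luteolin replicate 1 lay close together, and the groups still did not overlap. The log2 fold change of 1.06 (SE 0.28, adjusted p = 0.109 by edgeR) was smaller than that of any of the 3 chain genes, and its mean was 1099 ± 361 CPM in the luteolin group and 528 ± 111 CPM in the control group (SD, n = 3 each). Cd74 lost the study's threshold without control replicate 2, control replicate 3, luteolin replicate 2 or luteolin replicate 3, with log2 fold changes of 0.94, 0.98, 0.82 and 0.99. It also lost it in voom (0.79) and with offsets for GC content and gene length (0.67).

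**Figure D1:**
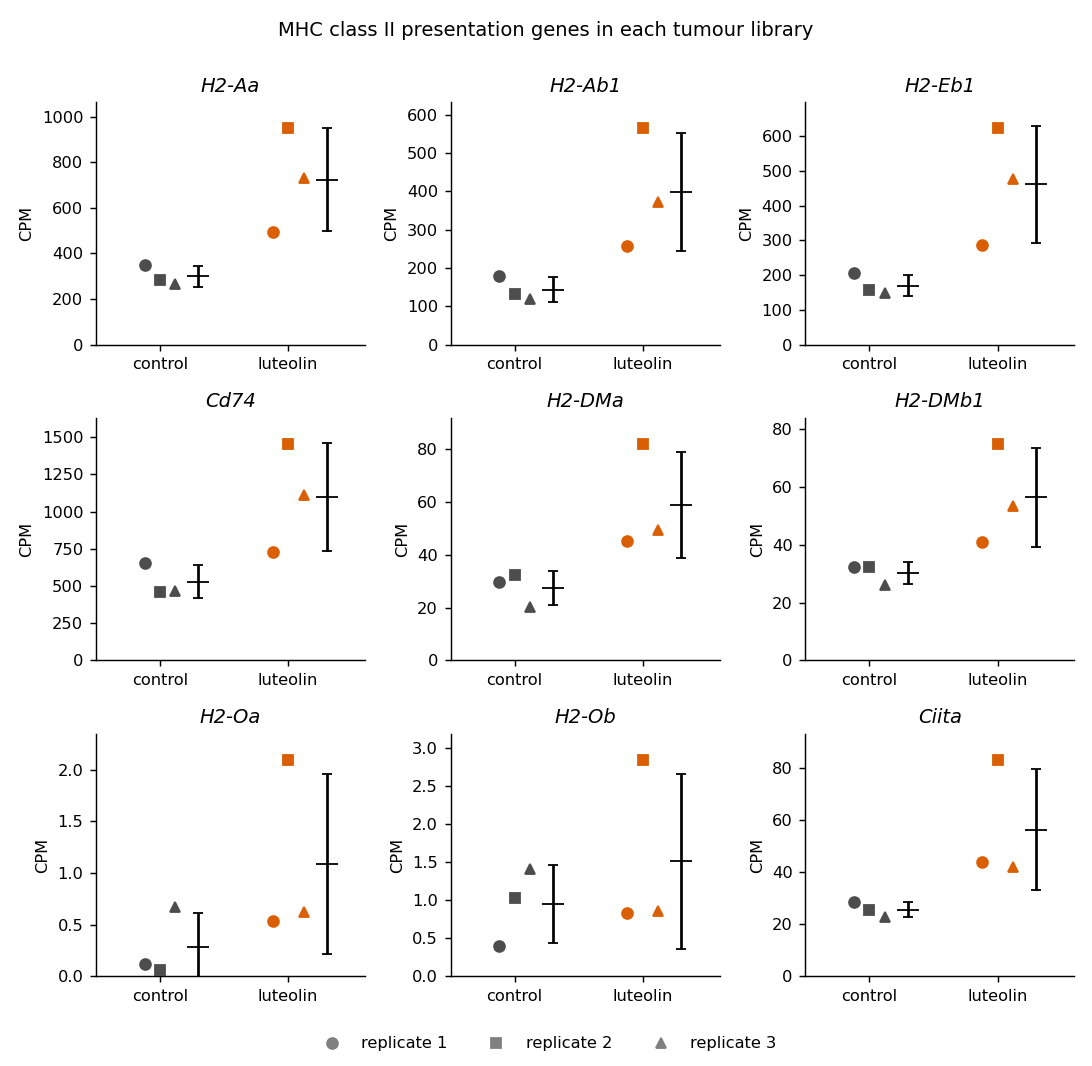
Level of each of the 9 members (CPM, linear axis from 0) in the 3 control libraries (grey) and the 3 luteolin libraries (orange), the symbol giving the replicate number, with the mean ± SD of each group as a black bar beside the points. The bar of the H2-Oa controls is cut off at 0. Orange points lie above all grey points in 7 panels and mix with them in the panels of H2-Oa and H2-Ob.

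H2-DMa and H2-DMb1 encode the chains of H2-DM, the exchange factor that loads peptides. H2-DMa had 29.6, 32.6 and 20.1 CPM in the control replicates and 45.5, 82.0 and 49.4 CPM in the luteolin replicates. Its partner H2-DMb1 had 32.3, 32.4 and 26.0 CPM against 41.0, 74.8 and 53.5 CPM. Both genes thus separated the groups, with luteolin replicate 2 the highest. The log2 fold change was 1.10 for H2-DMa (SE 0.30, adjusted p = 0.114 by edgeR) and 0.90 for H2-DMb1 (SE 0.25, adjusted p = 0.12), which fell short of a 2-fold change. H2-DMa lost the study's threshold without control replicate 3 (log2 fold change 0.92), without luteolin replicate 2 (0.81), in voom (0.64) and with the offsets (0.75), and H2-DMb1 passed it without luteolin replicate 1 (1.08). H2-DMb2, a close copy of H2-DMb1 with which it can share reads, had a log2 fold change of 0.94 (unadjusted p = 0.0134, adjusted p = 0.143 by edgeR), so the division of counts between the copies is uncertain.

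H2-Oa and H2-Ob encode the chains of H2-DO, the modulator of H2-DM. H2-Oa had estimated counts of 8, 4 and 43 in the control replicates and 33, 175 and 40 in the luteolin replicates. H2-Ob had 28, 67 and 91 against 51, 238 and 55. In both genes control replicate 3 lay within the luteolin range, and luteolin replicate 2 alone lay above all other libraries. The log2 fold change of H2-Oa was 1.95 with a 95% interval from -0.54 to 4.44, and that of H2-Ob 0.68 with an interval from -1.05 to 2.40 (adjusted p = 0.357 and 0.668 by edgeR). These intervals hold both no change and a change as large as that of the chain genes. Without control replicate 3, H2-Oa passed the study's threshold with a log2 fold change of 3.59 (unadjusted p = 0.0148, adjusted p = 0.232 by edgeR), and without luteolin replicate 2 the value of H2-Ob was -0.14. H2-Oa also passed the study's threshold in voom, with a log2 fold change of 2.66 (unadjusted p = 0.00865, adjusted p = 0.0443 by voom). Since 70.3% of values from 1 to 40 in the table are multiples of 4 or 1 above such a multiple, the smallest of these counts may stand for very few read pairs.

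Ciita, the transactivator, had 28.4, 25.5 and 22.8 CPM in the control replicates and 44.0, 83.2 and 42.0 CPM in the luteolin replicates. Luteolin replicates 1 and 3 were close to each other, and replicate 2 lay well above them. The mean rose 2.21-fold from 25.6 ± 2.83 to 56.4 ± 23.2 CPM (SD, n = 3 each), or 1.14 on the log2 scale (SE 0.30, adjusted p = 0.108 by edgeR). It lost the study's threshold in voom (0.82) and with offsets for GC content and length (0.83). Its value was 0.77 without luteolin replicate 2, where Ciita, Cd74 and H2-DMa lost the study's threshold and 3 of the 9 members kept it, against 7.52% of all genes in that setting. Without that library the 7 members other than H2-Oa and H2-Ob were still higher at an unadjusted p under 0.05, against 10.8% of all genes, and the median log2 fold change of all 9 was 0.82.

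**Figure D2:**
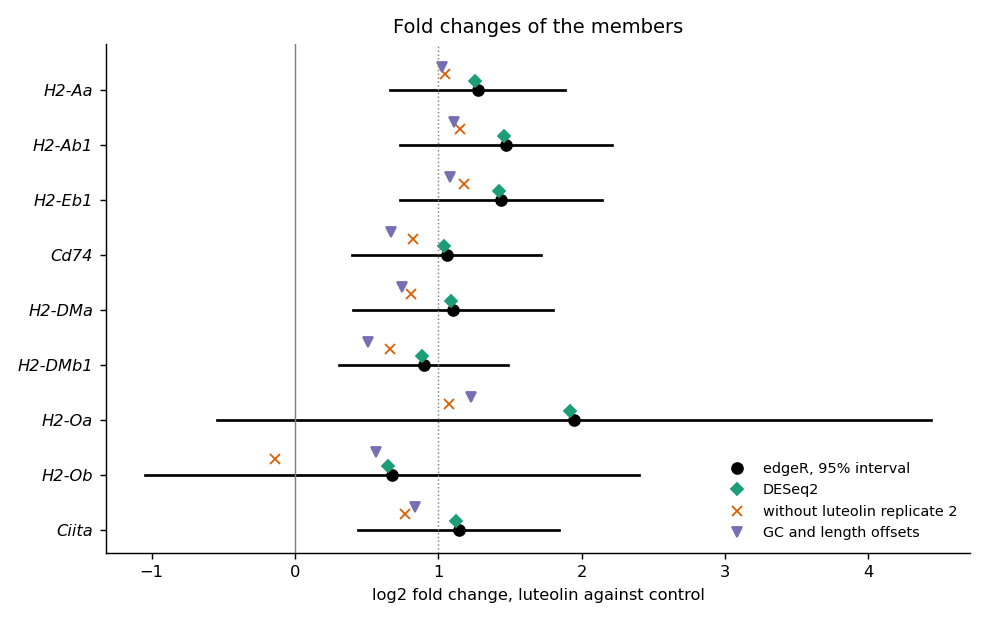
Log2 fold change of each member, luteolin against control, in edgeR's quasi-likelihood test (black points, lines for the 95% interval) and in 3 other settings (DESeq2, without luteolin replicate 2, and with offsets for GC content and gene length). The dotted line marks a 2-fold change. The intervals of 7 members lie above 0, those of H2-Oa and H2-Ob cross it, and H2-Ob turns negative without luteolin replicate 2.

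Divided by the length of the merged exons, Cd74 was the most abundant member in the control group, with a level of 273 to 390 CPM per kilobase. Without overlap with it, H2-Eb1 (75.9 to 105), H2-Aa (69.6 to 92.5) and H2-Ab1 (46.3 to 70.1) followed, and each overlapped the next of these in range. H2-DMb1 came next with 15.5 to 19.3 CPM per kilobase, then H2-DMa with 5.84 to 9.44 and Ciita with 2.39 to 2.98, all without overlap between neighbours. H2-Oa (0.0439 to 0.474) and H2-Ob (0.0745 to 0.262) were lowest and overlapped each other. The order was the same in the luteolin group, where Cd74 ranged from 436 to 865 CPM per kilobase and H2-Ob from 0.155 to 0.529. The merged exons join all annotated transcripts of a gene, so parts of this order depend on annotation. They measure 3798 bases for H2-Aa and 1944 for H2-Eb1, and 3448 for H2-DMa and 1681 for H2-DMb1. By CPM alone the control mean of H2-Aa (299) lay above that of H2-Eb1 (170), and H2-DMa (27.4) lay near H2-DMb1 (30.3).

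Ratios of counts within a library, which do not depend on its scaling, were compared for 10 pairs of genes. They can still depend on the library's trend with GC content. That content was 46.5% for H2-Aa, 57.3% for H2-Ab1 and 56.6% for Cd74. The ratios were not run with the GC offsets, and the part of the trend in them was not tested. Cd74 was 1.87, 1.62 and 1.78 times H2-Aa in control replicates 1, 2 and 3 and 1.48, 1.53 and 1.52 times in luteolin replicates 1, 2 and 3. It was the only pair of the 10 whose groups did not overlap, with a mean log2 ratio lower by 0.21 in the luteolin group (exact two-sided permutation test, p = 0.1, the smallest that 3 libraries against 3 allow, adjusted p = 0.5 over the 10 ratios). H2-Ab1 was 0.45 to 0.513 times H2-Aa in the controls and 0.511 to 0.595 times in the luteolin libraries (exact permutation test, p = 0.2). H2-Eb1 was 0.558 to 0.583 times H2-Aa in the controls and 0.578 to 0.657 times in the luteolin libraries (exact permutation test, p = 0.2). Both ranges lay mostly higher in the luteolin libraries and overlapped at one end, and with 3 libraries a group this test cannot go below 0.1, so it says nothing either way.

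The proportion of the loading genes varied more. H2-DMa was 0.0762 to 0.115 times H2-Aa in the controls and 0.0676 to 0.0921 times in the luteolin libraries, and H2-DMb1 was 0.996 to 1.29 times H2-DMa in the controls and 0.902 to 1.08 times in the luteolin libraries. H2-Oa ranged from 0.0019 to 0.0331 times H2-DMa in the controls and from 0.0119 to 0.0256 times in the luteolin libraries, and H2-Ob from 0.0124 to 0.0542 and from 0.0161 to 0.0381 times H2-DMb1. Ciita was 0.081 to 0.0902 times H2-Aa in the controls and 0.0575 to 0.0891 times in the luteolin libraries. All of these ranges overlapped between the groups.

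Set against Ptprc, the CD45 gene of all leukocytes, H2-Aa and Cd74 overlapped between the groups. H2-Aa was 7.62, 4.99 and 3.28 times Ptprc in control replicates 1, 2 and 3 and 3.92, 6.41 and 5.44 times in luteolin replicates 1, 2 and 3. Both the highest and the lowest ratio were in control libraries. The mean log2 ratio differed by 0.04 between the groups (exact two-sided permutation test, p = 0.9). Cd74 was 5.83 to 14.2 times Ptprc in the controls and 5.81 to 9.81 times in the luteolin libraries (exact permutation test, p = 0.8). Ptprc itself had 46.1, 56.6 and 80.6 CPM in the controls and 126, 148 and 134 CPM in the luteolin libraries, a log2 fold change of 1.16 (unadjusted p = 0.00142, adjusted p = 0.0639 by edgeR). Among the controls the order ran opposite, since control replicate 1 had the highest level of H2-Aa and the lowest of Ptprc. No other leukocyte gene was used for such ratios, and they depend on that choice. Of 5 general leukocyte genes, 3 were up-regulated, Ptprc among them. Itgb2, the most abundant, had 355, 329 and 333 CPM in the controls and 291, 362 and 336 CPM in the luteolin libraries. The ratios to Ptprc therefore do not measure class II RNA per leukocyte.

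**Figure D3:**
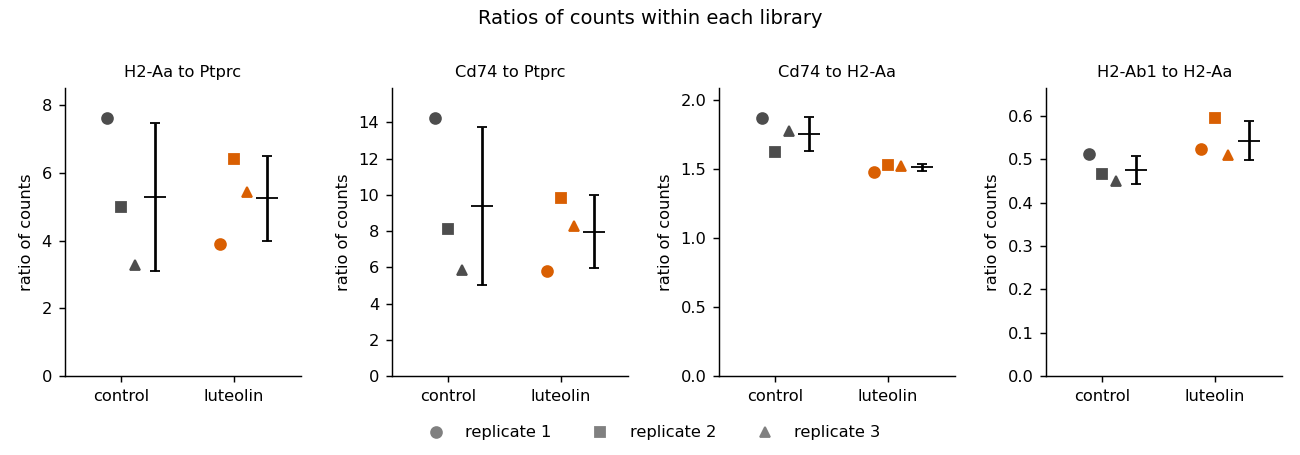
Ratio of counts of H2-Aa to Ptprc, Cd74 to Ptprc, Cd74 to H2-Aa and H2-Ab1 to H2-Aa in each library (linear axes from 0), with controls in grey, luteolin in orange, symbols for the replicate number and black bars for the mean ± SD of each group. The ratios to Ptprc overlap between the groups, and Cd74 to H2-Aa is 1.48 to 1.53 in the luteolin libraries and 1.62 to 1.87 in the controls.

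Summed markers of the cells that carry class II also lay higher in the luteolin libraries. The summed level of 11 macrophage and monocyte genes ranged from 1008 to 1166 CPM in the controls and from 1588 to 2363 CPM in the luteolin libraries. At the study's threshold 3 of the 11 were up-regulated, against 11.3% of all genes, the share to set beside each marker list below. The complement genes C1qa and C1qc, which tumour macrophages make, led this list and had log2 fold changes of 0.80 and 0.91 (unadjusted p = 0.0258 and 0.0239 by edgeR). The 10 dendritic cell genes summed to 127 to 139 CPM in the controls and 200 to 296 CPM in the luteolin libraries, with 8 of 10 up-regulated. The abundant genes of this list were Itgax, the CD11c gene, with a log2 fold change of 1.15 (unadjusted p = 0.00186), and Zbtb46, a transcription factor of conventional dendritic cells, with -0.33 (unadjusted p = 0.145). Itgax supplied most of the sum in every library, with 86.0 to 90.4 CPM in the controls. It had 134, 196 and 252 CPM in luteolin replicates 1, 2 and 3, so the sum mainly follows Itgax.

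Of the 8 B cell genes, 7 were tested and 2 were up-regulated, and the sum was 12.2 to 14.2 CPM in the controls and 14.4, 43.9 and 35.5 CPM in luteolin replicates 1, 2 and 3. Cd22 and Cd79b, receptors of B cells, had log2 fold changes of 0.75 (unadjusted p = 0.13) and 2.17 (unadjusted p = 0.0125 by edgeR). The defining B cell gene Ms4a1, which was chosen after its values were seen, was at 0 in control replicate 2 and reached 1.19 CPM at most. All 7 T cell genes were up-regulated, from sums of 8.0 to 9.76 CPM to 33.2, 55.1 and 37.7 CPM, with log2 fold changes of 2.33 for Cd3g and 2.51 for Cd8a, the most abundant. Of the general leukocyte genes 3 of 5 were up-regulated, Laptm5 with a log2 fold change of 1.09, while Itgb2, the most abundant, had -0.04 (unadjusted p = 0.782 by edgeR). The part of these cells in the class II values was not tested.

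Genes of other tissues also moved with the libraries. Krt14 and Krt10, keratins of the epidermis, were highest in luteolin replicate 2, and 7 of the 10 keratinocyte genes were at 0 in all controls. Cd207, the langerin gene of Langerhans cells, which carry class II in the epidermis, had 0.686, 10.2 and 0.0626 CPM in luteolin replicates 1, 2 and 3 and at most 0.0772 CPM in the controls. Luteolin replicate 3 had a keratinocyte sum of 16.6 CPM, which was also above every control, and class II chain genes above all controls. The part of skin tissue in the class II values was not tested. The lymph node stroma list, led by the chemokine genes Cxcl13 and Ccl21a, summed to 1.03 to 3.95 CPM in the controls and 20.8, 114 and 18.2 CPM in the luteolin libraries, and 2 of its 3 tested genes were up-regulated. Cxcl13 and Ccl21a were those 2 and supplied most of each sum. The other tested gene, Cr2, named after its values were seen, had a log2 fold change of 0.64 (unadjusted p = 0.475 by edgeR). The genes of this list that were not tested reached 0.491 CPM at most. The endothelial list summed to 105 to 116 CPM in the controls and 113 to 300 CPM in the luteolin libraries, with Pecam1 and Cdh5 at log2 fold changes of 1.05 and 0.67 and 2 of 6 genes up-regulated. The hepatocyte list had 0 of 6 genes at the study's threshold and 1, Afp, lower at an unadjusted p under 0.05 by edgeR.

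**Figure D4:**
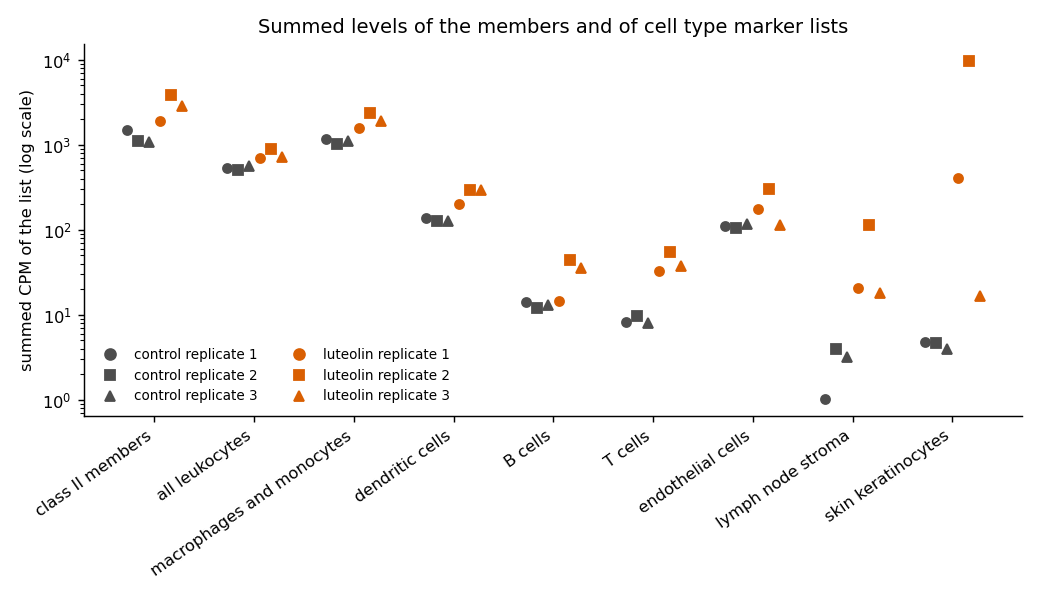
Summed CPM (log scale) of the 9 class II members and of 8 lists of cell type markers in each of the 6 libraries, controls in grey and luteolin in orange, with symbols for the replicate number. The class II sum is 1072 to 1483 CPM in the controls and 1901 to 3833 CPM in the luteolin libraries, and the keratinocyte sum reaches 9683 CPM in luteolin replicate 2.

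Of the other genes of the pathway, 37 of 38 in the table were tested. At the study's threshold 13 were up-regulated, against 11.3% of all genes, and 0 down-regulated, against 1.52%. Their median log2 fold change was 0.45. At an adjusted p under 0.05 by edgeR 3 were called higher, Marchf1 and Prdm1 among them, against 1.34% of all genes. Of the endosomal genes 3 of 12 were up-regulated. Marchf1, a ubiquitin ligase that removes class II from the surface of antigen-presenting cells, had 7.08, 6.72 and 6.50 CPM in the controls and 17.2, 16.3 and 18.1 CPM in the luteolin libraries, with a log2 fold change of 1.35 (adjusted p = 0.0403 by edgeR). Ctss, the cathepsin that makes the last cut of the invariant chain in antigen-presenting cells, had 588, 530 and 588 CPM against 1030, 1029 and 1740 CPM, a log2 fold change of 1.16 (adjusted p = 0.0661). Its highest library was luteolin replicate 3, without which the value was 0.81, and with the offsets for GC content and length it was 0.86, both short of the study's threshold. Ctsh, another cathepsin, had 48.6 to 57.8 CPM in the controls and 104 to 216 CPM in the luteolin libraries (log2 fold change 1.5, adjusted p = 0.0574).

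The factors that occupy the X and Y boxes had a median log2 fold change of -0.11. Of 7 genes, 0 passed the study's threshold in either direction. With 11.3% of all genes up-regulated and 1.52% down-regulated, 0 among so few genes is near the share of all genes. Rfx5, the DNA-binding subunit of the RFX complex on the X box, had 46.4, 39.4 and 41.7 CPM in the controls and 30.0, 23.4 and 26.9 CPM in the luteolin libraries. Its log2 fold change was -0.67 (SE 0.17, unadjusted p = 0.00577, adjusted p = 0.103 by edgeR). Rfxank, a second subunit, had 41.3 to 56.4 CPM against 32.4 to 34.1 CPM (log2 fold change -0.55, unadjusted p = 0.0142, adjusted p = 0.148). DESeq2 called both lower at an adjusted p under 0.05 (0.0124 for Rfx5 and 0.0364 for Rfxank), as did voom (0.025 and 0.0142), and the offsets gave adjusted p = 0.0491 for Rfx5 and 0.0522 for Rfxank. Both lay below every control in all luteolin libraries, as 12.8% of all genes did, and both differences were under 2-fold. Nfyb, of the NF-Y complex that binds the Y box, had a log2 fold change of -0.22 with overlapping groups (unadjusted p = 0.312).

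Among genes that act on Ciita, 8 of 13 were up-regulated, against 11.3% of all genes. Prdm1, which encodes a repressor of Ciita in plasma cells, had 6.32 to 8.82 CPM against 18.1 to 32.5 CPM (log2 fold change 1.76, adjusted p = 0.0437 by edgeR). Ifng had 0.157 to 0.618 CPM against 2.52 to 4.77 CPM (log2 fold change 3.39, adjusted p = 0.0665). Its highest library was luteolin replicate 1, in which the class II chain genes were lowest among the luteolin libraries. The part of Ifng in the class II values was not tested. Of the genes for class II receptors and the invariant chain ligand, 2 of 4 were up-regulated. These were Cd4, the coreceptor of helper T cells (log2 fold change 1.63, adjusted p = 0.11), and Lag3, an inhibitory receptor that binds class II (1.6, adjusted p = 0.0594).

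**Figure D5:**
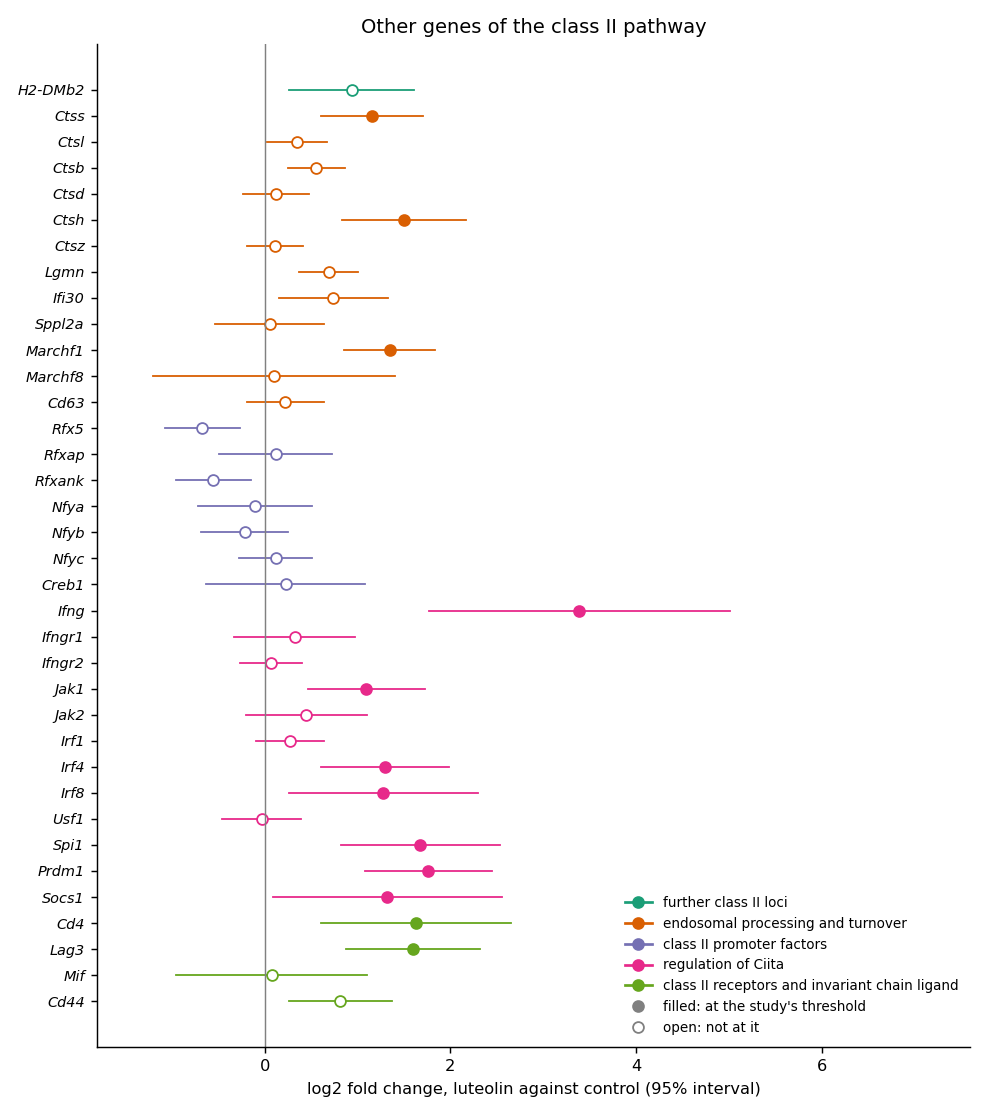
Log2 fold change, luteolin against control, with the 95% interval from edgeR's quasi-likelihood test, for 36 of the 37 tested genes of the class II pathway outside the 9 members, coloured by list. Filled points are the 12 genes shown that pass the study's threshold, all higher in the luteolin group, and Rfx5 and Rfxank are the genes whose whole interval lies below 0.

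Outside all lists, the genes whose log2 CPM followed the mean profile of the 9 members most closely over the 6 libraries included Arhgap25, Snx20, Nmnat3 and Thumpd2, with Pearson's r from 0.995 to 0.997. Arhgap25, which encodes a GTPase-activating protein of leukocytes, had 10.6, 9.64 and 9.40 CPM in the controls and 15.0, 28.4 and 19.5 CPM in the luteolin libraries. The points of each r share the difference between the groups and the high values of luteolin replicate 2, and 290 of 14853 genes had an r over 0.95. Among the members themselves the correlation with their own mean ranged from 0.60 for H2-Ob and 0.80 for H2-Oa to 0.98 for H2-DMb1.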

How the data were processed

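RNA-seq libraries of H22 tumours, 3 from vehicle-treated and 3 from luteolin-treated mice, were analysed. The authors deposited 1 table of estimated counts per gene symbol, not scaled between libraries. The submitters' processing notes name bcl2fastq 2.0, HISAT2, StringTie and DESeq2 and the builds mm39 and rn6, without their roles. Among values from 1 to 40, the share that is a multiple of 4, or 1 more than that, was 70.3% (50% if evenly spread).

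Counts were rounded and tested in R 4.3.3 with edgeR 4.0.16 (TMM, filterByExpr, quasi-likelihood test, no covariates) on all genes. Alternatives were DESeq2 1.42.0, voom of limma 3.58.1 with sample quality weights, and other normalizations and filters. Further alternatives were a replicate block, offsets for gene length and GC content, division of all values by 4, and each library left out. The pipeline was tested on simulated data. Ratios are printed from the counts and were tested as differences of log2 CPM with a prior count of 2. Lengths and GC content came from GENCODE M21, which held 21489 of the 21720 symbols.

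Members and lists were chosen with earlier results of these data known. Named genes were the members, in each pathway list those at the study's threshold (or, if over 5 or none, the 3 with the smallest p), the 2 most abundant of each marker list, and the 5 closest in profile, less some genes not reported here. A promoter match used letters only.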

Additional observations from a re-analysis of the deposited data

How the results depend on the processing

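The number of members at an adjusted p under 0.05 was 0 in edgeR and remained 0 with RLE or upper-quartile normalization, without the filter on low counts, with values divided by 4 and with any library left out (0 to 0). It was 7 in DESeq2, 7 in voom, 2 of the 8 members left when at least 10 counts were required in every library, 3 with offsets for GC content and gene length, and 7 in DESeq2 without luteolin replicate 2, a setting chosen after the data had been seen. The number at the study's threshold was 6, against 3 in voom, 3 with the offsets and 3 in DESeq2 without luteolin replicate 2, and 3 to 7 with a library left out. The offsets moved the median log2 fold change of all genes to -0.23, and the median of the members relative to it was 1.07, against 1.15 without them. They gave 558 higher genes of 862 at an adjusted p under 0.05, and voom 1886 of 3197, against 200 of 228. Members up-regulated at the study's threshold numbered 6 with the replicate block as well, and 0 had an adjusted p under 0.05, among 35 of all genes. Deviations of libraries with the same number correlated at -0.20, -0.09 and 0.06, control replicate 1 correlated best with luteolin replicate 2, and the numbers were not taken as pairs. Of the fold changes of members, those of H2-Ob alone changed sign, to -0.11 in voom, -0.14 without luteolin replicate 2 and -0.15 in DESeq2 without it. With a library left out, the log2 difference of 5 ratios changed sign: H2-DMa to H2-Aa (-0.28 to 0.021, positive without control replicate 2), H2-Ob to H2-DMb1 (-0.84 to 0.19, positive without control replicate 3), Ciita to H2-Aa (-0.27 to 0.043, positive without luteolin replicate 3), H2-Aa to Ptprc (-0.26 without control replicate 3 and -0.11 without luteolin replicate 2, otherwise up to 0.35) and Cd74 to Ptprc (0.18 without control replicate 1 and 0.044 without luteolin replicate 1, otherwise down to -0.46). The calls of Marchf1 and Prdm1 at an adjusted p under 0.05 in edgeR were lost without any one control replicate and without luteolin replicate 1, settings in which 0 genes of the whole table passed, with 1907 to 2462 at an unadjusted p under 0.05. Both were also lost with the replicate block (adjusted p = 0.121 and 0.118), and Marchf1 without luteolin replicate 3 (0.0702), without the filter (0.0537) and with the offsets (0.0602). The causes were not tested. Low counts limit H2-Oa and H2-Ob.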
